A study of Mus musculus with 8 samples.

Results

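Chaperones are proteins that help other proteins fold, and the genes described here code for their main families. Members were the genes whose symbol begins with Hspa, Hspb, Hspd, Hspe, Hsph, Hsp90, Dnaja, Dnajb, Dnajc, Cct2 to Cct8, Bag1 to Bag6 or Pfdn, together with Tcp1. The rule read symbols only and found 83 of the 13101 genes in the table. They are 10 HSP70 and HSP110 genes, 3 HSP90 genes, 3 small HSP genes, 42 DNAJ genes, 10 CCT chaperonin genes, the 2 genes of the mitochondrial chaperonin, 5 prefoldin genes, 6 BAG genes and 2 other symbols that the rule also took in.

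HSP70 proteins bind short stretches of unfolded protein and release them when nucleotide is exchanged. J-domain proteins of the DNAJ families bring them their clients, HSP110 and BAG proteins drive the exchange, and HSP90 receives part-folded clients such as kinases. Prefoldin hands new actin and tubulin to CCT, a closed double ring in the cytosol, while the HSP60 and HSP10 proteins form the chamber of the mitochondrion. In the mouse the first wave of transcription from the embryo's own genome runs at the 2-cell stage, and an HSP70 gene is among the early transcripts known from it. Dux, a homeobox transcription factor, is made at that stage and activates many genes typical of it.

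Polyadenylated RNA was sequenced from 4 pools of Dux KO embryos and from 4 pools of wild-type (WT) embryos, all at the 2-cell stage on a C57BL/6 background. Each pool held 12 to 18 embryos collected after timed matings, and cDNA was amplified with a low-input kit before Nextera XT libraries were made. The labels give the genotype as Dux KO or WT without naming an allele or the genotype of the parents, and Dux itself was not analysed here, so the knockout could not be checked in the data. Nothing in the labels says that the pools came from separate parents, so the p-values reflect how much these pools varied, some of which may be technical. In pools of embryos, fewer cells with a transcript and less of it per cell cannot be told apart.

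Between 12343369 and 14548526 gene reads per library were recovered from the FPKM values, and 106714 to 143688 of them fell on the members. FPKM are fragments scaled to exon length and between libraries, the latter by size factors here, which is an inference. FPKM summed over all genes tested averaged 398600 in Dux KO pools and 458700 in WT pools, so summed FPKM are not shares of a library. All 16 oocyte and 2-cell embryo markers were in the table, with a summed level of 5333 to 8716 FPKM in Dux KO pools and 6517 to 7703 FPKM in WT pools. At a limma adjusted p under 0.05, 5 of them were lower (31.2%) and 2 higher (12.5%), against 18.1% and 15.5% of all genes. Most of the sum was Dppa3, which was lower (3445 FPKM in Dux KO, 5244 FPKM in WT), and Oosp1, which was higher (2298 FPKM in Dux KO, 1106 FPKM in WT). The sum therefore does not show that the markers were alike. No sperm marker and 1 of 6 blood markers was in it. The 4 of 10 cumulus and granulosa markers present summed to 5.68 to 21.0 FPKM in Dux KO pools and 1.45 to 10.3 FPKM in WT pools. Of these, Cyp19a1 was higher in Dux KO without overlap (1.06 FPKM in Dux KO, 0.42 FPKM in WT, limma adjusted p = 0.0167). The other 3 were not called. Inha (6.82 FPKM in Dux KO, 1.75 FPKM in WT) and Star averaged higher in Dux KO, and Tnfaip6 averaged lower. The 3 of 6 oviduct markers present summed to 96.8 to 138 FPKM in Dux KO pools and 130 to 150 FPKM in WT pools, without Foxj1, Krt8 and Pax8. Most of that sum was Epcam, which was lower in Dux KO (65.2 to 113 FPKM in Dux KO, 116 to 143 FPKM in WT, limma adjusted p = 0.0297). The other oviduct markers averaged higher in Dux KO and were not called, Ovgp1 at 10.5 FPKM in Dux KO and 4.96 FPKM in WT and Krt18 at 6.83 FPKM in Dux KO and 2.84 FPKM in WT, with Dux KO replicates 1 and 2 the highest for both. The part of these other cell types in the results below was not tested.

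More chaperone genes were lower than higher in Dux KO embryos. Most subunits of the CCT ring, 3 prefoldin genes and several cofactors of HSP70 fell, while Hspe1, Hsp90b1, Hspa2 and a few DNAJ genes rose. A gene was called when the limma test on log2(FPKM + 1), adjusted by Benjamini-Hochberg over all genes tested, gave p under 0.05. Of the 82 members above the filter of 0.5 FPKM, 27 (32.9%) were lower and 10 (12.2%) higher in Dux KO, against 18.1% lower and 15.5% higher among all 12434 genes tested. The authors' deposited table calls 31 members lower (37.3%) and 10 higher (12.0%), against 18.6% and 16.2% of all genes in it. Members whose 4 Dux KO values all lay below, or all above, the 4 WT values numbered 28 and 12 of the 82 tested. Among the 12434 genes these were 2253 (18.1%) and 1865 (15.0%), so the share of members wholly above was close to that of all genes. The median log2 fold change was -0.23 over the members and -0.02 over all genes tested.

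The members summed to 2358, 2085, 2556 and 2578 FPKM in the Dux KO pools and to 3029, 3118, 3222 and 3372 FPKM in the WT pools. Every Dux KO sum was below every WT sum, and the ratio of the means was 0.752, against 0.869 for the sum over all genes tested. Dux KO replicate 2 had the lowest sum. Quantile normalization, which makes the libraries' distributions alike, left 15 members lower and 9 higher, so that 62.5% of the calls were lower in place of 73.0%. Under that setting 18.3% of members were lower and 11% higher, against 15.3% and 14.9% of all genes, so the members' share of lower calls was close to the background. Without WT replicate 4 the counts were 12 lower and 7 higher, and without Dux KO replicate 1 they were 16 and 8, with 10.8% and 11.5% of all genes lower. Without Dux KO replicates 1 and 2 together, 5 members were lower and 3 higher, with 3.62% of all genes lower.

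**Figure D1:**
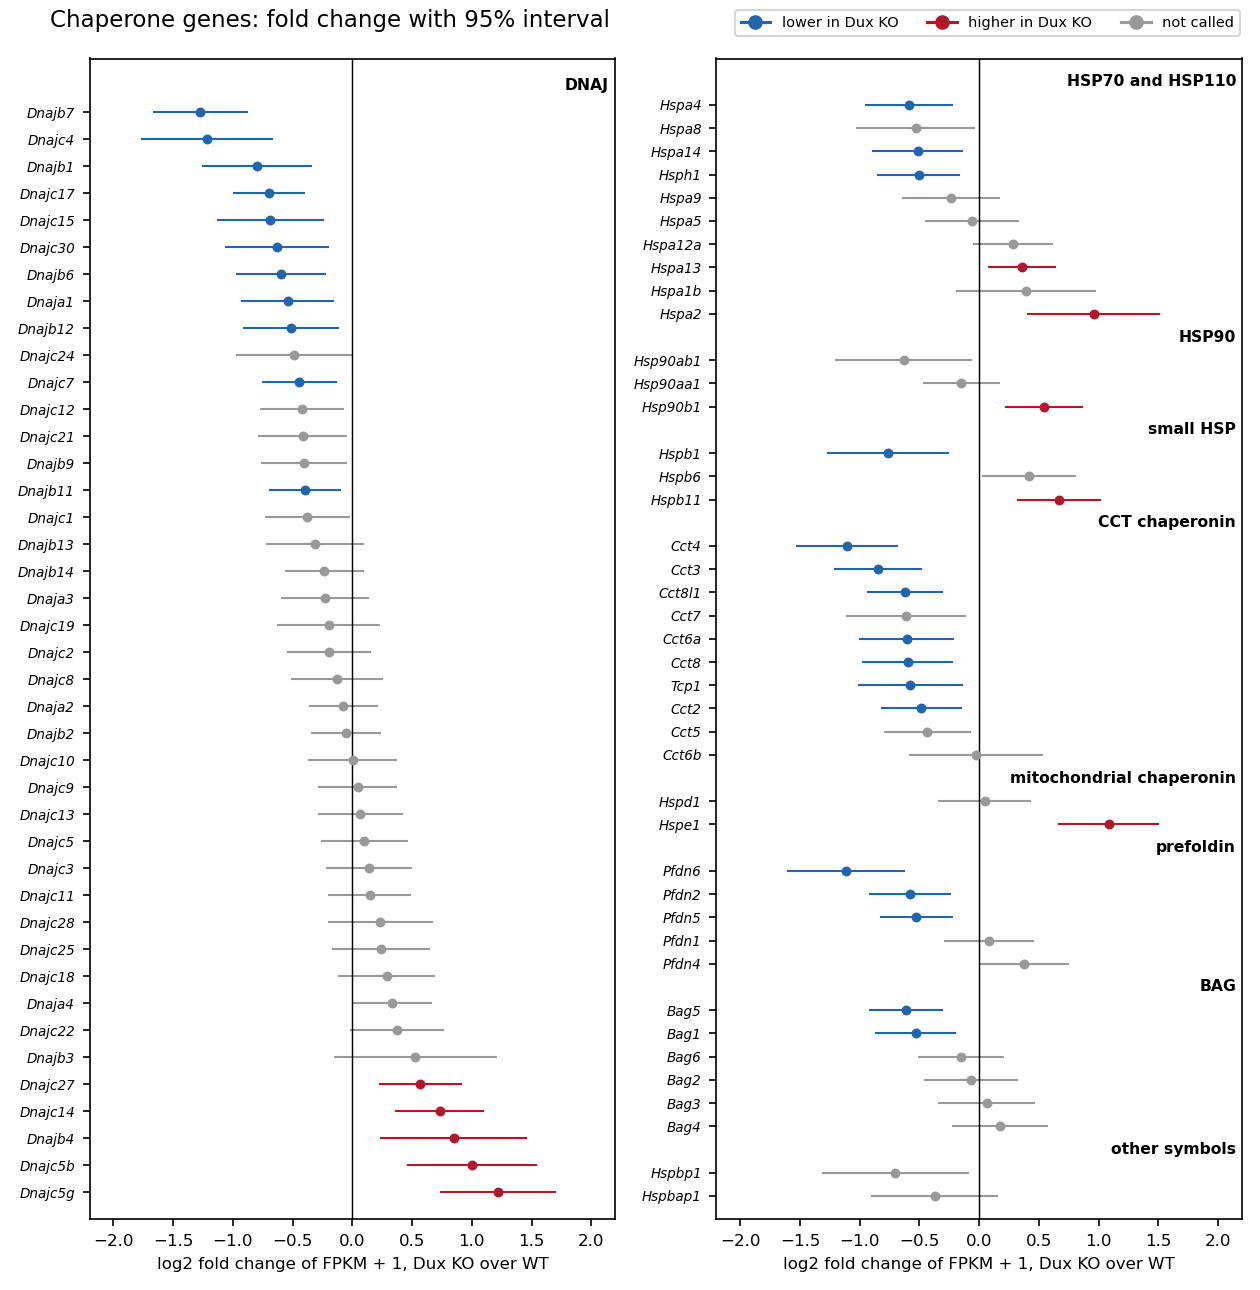
Log2 fold change of FPKM + 1 (Dux KO over WT) on the horizontal axis for each of the 82 chaperone genes tested, with its 95% interval as a line, DNAJ genes on the left and the other groups on the right. Colour marks the 27 genes lower (32.9%) and the 10 genes higher (12.2%) in Dux KO, against 18.1% and 15.5% of all genes tested. Of the 10 CCT genes, 7 (70%) are lower with none higher.

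The share of genes called moved with abundance. At a mean of 20 FPKM or more, 17 of 34 members (50%) were lower and 1 was higher, against 34.3% and 13.6% of the 2705 genes at that level. From 5 to 20 FPKM, 8 of 23 members (34.8%) were lower and 6 (26.1%) higher, against 21.5% and 16.0% of 3763 genes. Under 5 FPKM, 2 of 25 members (8%) were lower and 3 (12%) higher, against 8.6% and 16.1% of the 5966 genes there. The single abundant gene that rose was Hsp90b1.

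**Figure D2:**
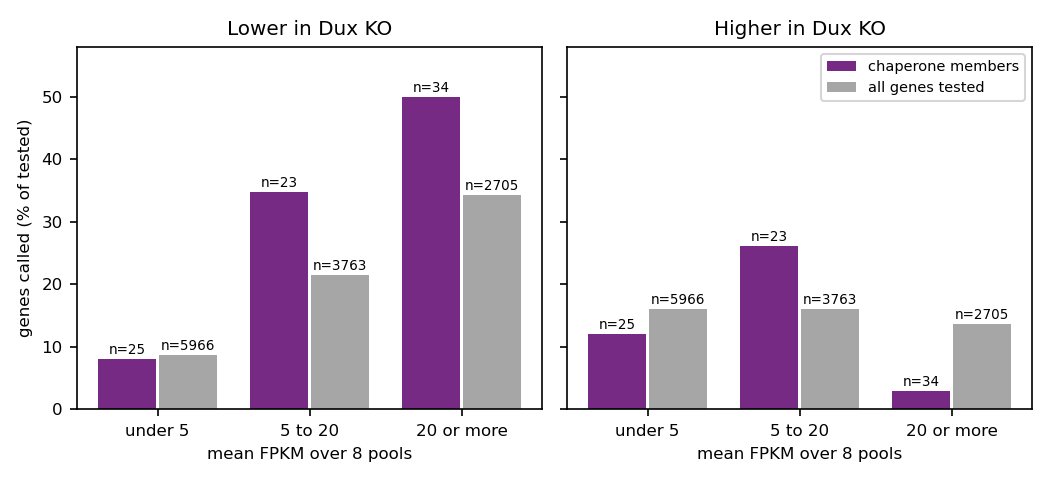
Percent of genes called lower (left) and higher (right) in Dux KO by mean FPKM over the 8 pools, for chaperone members and for all genes tested, with the number of genes over each bar. Among genes at 20 FPKM or more, 50% of members and 34.3% of all genes were lower.

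CCT folds actin and tubulin in a chamber of 2 stacked rings, each built of 8 different subunits. Of those 8 genes 6 (75%) fell in Dux KO, against 18.1% of all genes and 34.3% of those at 20 FPKM or more. Under quantile normalization 3 CCT genes stayed lower, with 15.3% of all genes lower. They were Cct3 (limma adjusted p = 0.0117), Cct4 (0.00543) and Cct8l1, which is not part of the ring, so most ring subunits lost their call there. The summed level of the 8 subunits was 495, 393, 591 and 536 FPKM in the Dux KO pools, against 663, 736, 844 and 853 FPKM in the WT pools. No Dux KO sum reached the lowest WT sum, and the Dux KO mean was 0.651 times the WT mean. The median log2 fold change of the 10 CCT genes was -0.60, against -0.29 for all genes at a mean of 20 FPKM or more, where 7 of the 8 ring subunits lie, and -0.02 for all genes tested. No CCT gene was higher by limma, at an unadjusted p under 0.05 or in the authors' deposited table.

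Cct4, the delta subunit, lies at chr11:22990519-23003780 on the + strand of GRCm38 (GENCODE M21, as for the other genes). It had 28.8, 20.4, 36.6 and 27.4 FPKM in the Dux KO pools, against 53, 53.2, 65.5 and 74.8 FPKM in the WT pools. The groups did not overlap, and Dux KO replicate 2 was the lowest of all pools. Cct4 averaged 28.3 ± 6.63 FPKM in Dux KO and 61.7 ± 10.6 FPKM in WT (SD, n = 4 each), a log2 fold change of -1.11 ± 0.19 (SE; limma adjusted p = 0.00359). Cct3, the gamma subunit (chr3:88297116-88321767 on the + strand of GRCm38), had 38.8, 36.3, 52.4 and 42.3 FPKM in the Dux KO pools, against 63.1, 72.7, 86.9 and 85 FPKM in the WT pools. These groups were also apart, and Cct3 fell by 0.84 on the log2 scale (limma adjusted p = 0.00535). Both calls held without any single pool, with adjusted p of 0.00366 to 0.0128 for Cct4 and 0.00556 to 0.0203 for Cct3.

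The remaining subunits shifted less. Cct8, the theta subunit and the most abundant of them, averaged 155 ± 31.7 FPKM in Dux KO and 231 ± 18.7 FPKM in WT and fell by 0.60 (limma adjusted p = 0.0218). Cct6a, the zeta subunit, averaged 44.2 ± 8.38 FPKM in Dux KO and 67.4 ± 9.72 FPKM in WT and fell by 0.61 (adjusted p = 0.024). Tcp1, the alpha subunit, averaged 108 ± 24.6 FPKM in Dux KO and 160.1 ± 26.4 FPKM in WT and fell by 0.58 (adjusted p = 0.043). Cct2, the beta subunit, fell by 0.48 (adjusted p = 0.0302). These 4 genes had no overlap between groups. Cct5, the epsilon subunit, had 58.7 to 77.2 FPKM in Dux KO and 78.4 to 120.1 FPKM in WT, also apart, but missed the threshold (adjusted p = 0.0602). Cct7, the eta subunit, overlapped between groups (9.66 to 15.8 FPKM in Dux KO, 13.7 to 26.1 FPKM in WT; adjusted p = 0.0559).

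Several of these calls rest on single pools. Tcp1 missed the threshold without any one of 5 pools (limma adjusted p = 0.079 and 0.0738 when Dux KO replicate 1 or 2 was left out, and 0.0583, 0.105 and 0.1 when WT replicate 2, 3 or 4 was). Cct6a missed it without WT replicate 3 (0.0602) or WT replicate 4 (0.0637), and Cct8 without Dux KO replicate 1 (0.0623) or WT replicate 4 (0.0605). Under quantile normalization the adjusted p was 0.164 for Tcp1, 0.0811 for Cct6a and 0.102 for Cct8. Exons of Cct6a and Tcp1 also overlap genes on the other strand, Psph over 12.5% of the Cct6a exon bases and Acat3 over 11.4% of those of Tcp1. Nextera XT libraries do not keep the strand, so reads there cannot be assigned to one gene.

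Within the ring, the shares of Cct4 and Cct3 were the ones whose groups did not overlap. Cct4 made up 5.83%, 5.20%, 6.19% and 5.12% of the summed FPKM of the 8 subunits in the Dux KO pools, against 7.99%, 7.23%, 7.77% and 8.78% in the WT pools. Cct3 made up 8.46 ± 0.701% in Dux KO and 9.91 ± 0.324% in WT. The shares of both were lower in every Dux KO pool than in any WT pool. Cct8 stayed the largest, at 30.6 ± 1.69% in Dux KO and 30 ± 2.34% in WT. The most abundant subunit exceeded the least abundant by 11.1 to 13.1 times in Dux KO pools and by 8.91 to 14.9 times in WT pools, per length of exon.

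The other CCT symbols are not part of the general ring. Cct6b, a testis form of the zeta subunit, averaged 11.5 ± 1.1 FPKM in Dux KO and 12.6 ± 5.67 FPKM in WT and was not called (log2 fold change -0.03, adjusted p = 0.936). Cct8l1, a gene named for its likeness to Cct8, had 1.09, 1.14, 1.41 and 1.39 FPKM in the Dux KO pools, against 2.82, 2.35, 2.62 and 2.09 FPKM in the WT pools. Its groups were apart at a low level, with 31 to 41 reads per Dux KO pool and 54 to 68 per WT pool (limma adjusted p = 0.00942).

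Prefoldin, a complex with 6 subunit genes that carries new actin and tubulin to CCT, split into 3 genes that fell and 2 that were not called. The 3 are 60% of the 5 members, against 18.1% of all genes and 34.3% of those at 20 FPKM or more. Pfdn6 (chr17:33938821-33940343 on the - strand of GRCm38) had 54, 35.3, 82 and 64.4 FPKM in the Dux KO pools, against 117, 124, 115 and 138 FPKM in the WT pools. The groups were well apart, and Dux KO replicate 2 was again the lowest. The log2 fold change of Pfdn6 was -1.11 ± 0.22 (SE; limma adjusted p = 0.00576), and it passed the threshold without any single pool (0.00413 to 0.0199). Pfdn5, which also binds the transcription factor MYC, averaged 135 ± 13.3 FPKM in Dux KO and 194 ± 8.77 FPKM in WT (log2 fold change -0.53, adjusted p = 0.0146). Pfdn2 averaged 60.8 ± 9.39 FPKM in Dux KO and 91 ± 7.76 FPKM in WT (log2 fold change -0.58, adjusted p = 0.0161). Pfdn5 and Pfdn2 did not overlap between groups, but under quantile normalization their adjusted p were 0.115 and 0.094. Klhdc9 overlaps 27.6% of the Pfdn2 exon bases on the other strand, and Myg1 overlaps 11.8% of those of Pfdn5 on the same strand.

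Pfdn1 averaged 37.7 ± 6.58 FPKM in Dux KO and 35.5 ± 4.99 FPKM in WT (adjusted p = 0.721), and the pools overlapped. Pfdn4 had 16.6, 24.2, 16.9 and 17 FPKM in the Dux KO pools, against 15.7, 14.5, 14.2 and 11.8 FPKM in the WT pools. All 4 Dux KO values of Pfdn4 were above the WT values, yet it missed the threshold (log2 fold change 0.38, limma adjusted p = 0.099). The remaining subunit gene, Vbp1, is no member by its symbol and averaged 141 ± 24.3 FPKM in Dux KO and 180 ± 36.4 FPKM in WT (adjusted p = 0.161). Counting Vbp1, Pfdn6 made up 12.8 ± 3.09% of prefoldin FPKM in Dux KO and 19.4 ± 1.77% in WT, while Pfdn1 made up 8.33 ± 0.668% in Dux KO and 5.57 ± 0.848% in WT. Pfdn4 made up 4.24 ± 1.31% in Dux KO and 2.21 ± 0.278% in WT. The pools of the 2 groups did not overlap in any of these shares.

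**Figure D3:**
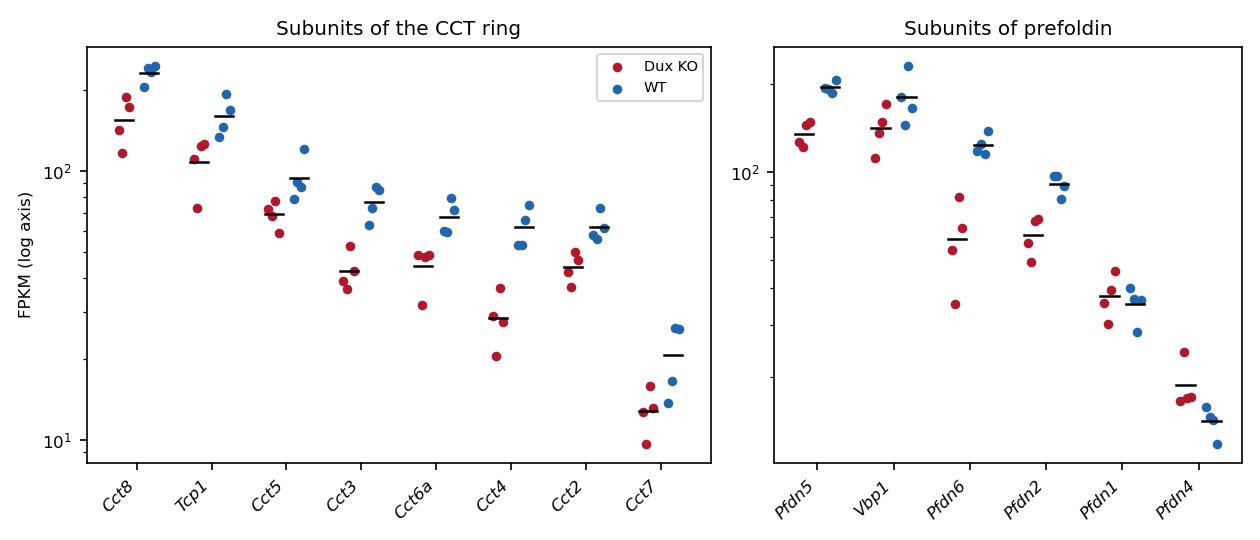
FPKM (log axis) of the 8 CCT ring subunits and of the 6 prefoldin subunits, Vbp1 included, in each of 4 Dux KO pools (red) and 4 WT pools (blue), with the group mean as a bar. Cct4 (20.4 to 36.6 FPKM in Dux KO, 53.0 to 74.8 FPKM in WT) and Pfdn6 (35.3 to 82.0 FPKM in Dux KO, 115 to 138 FPKM in WT) are the furthest apart.

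Partners of the chaperonin and prefoldin, from a list of 17 genes, gave 6 genes lower (40%) and 1 higher (6.67%) of 15 tested, against 18.1% and 15.5% of all genes, with a median log2 fold change of -0.48. Most of the 15 averaged 20 FPKM or more, where 34.3% of all genes were lower and 13.6% higher, so the lower share was near that background. Pdrg1 and Uxt, both parts of a prefoldin-like complex, had the largest decreases. Pdrg1 averaged 50 ± 12.6 FPKM in Dux KO and 100.3 ± 6.89 FPKM in WT (log2 fold change -1.02, limma adjusted p = 0.00393). Uxt averaged 9.33 ± 3.87 FPKM in Dux KO and 18.9 ± 4.38 FPKM in WT (log2 fold change -1.0, adjusted p = 0.0182), and Dux KO replicate 4 lay above WT replicate 2. Uri1, a further part of that complex, was the gene that rose, at 12.3 ± 1.96 FPKM in Dux KO and 7.92 ± 0.691 FPKM in WT (log2 fold change 0.57, adjusted p = 0.0206).

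Of the 2 genes of the mitochondrial chaperonin, Hspe1, the HSP10 lid of the chamber, rose in Dux KO, and Hspd1, the HSP60 barrel, was not called. That is 50% of the pair, against 15.5% of all genes higher and 16.0% of those at 5 to 20 FPKM, where both genes lie. The genes sit head to head on chromosome 1, Hspe1 at chr1:55088132-55091307 on the + strand of GRCm38 and Hspd1 at chr1:55077835-55088243 on the - strand of GRCm38, and their annotated exons overlap by 112 bases on opposite strands. Their promoters were searched for the letters of a heat shock element, the site that the factor HSF1 binds, taken here as 3 units of TTC and GAA in alternation, each parted by any 2 bases (NN), on both strands. RefSeq promoters of build GRCm38.p6 were taken from 250 bases before to 50 after the start. Of 32851 promoters 198 (0.603%) held the motif, as did 6 (6.98%) of the 86 matched to 67 members. By gene these are 4 of the 67 (5.97%), against 179 of 27025 (0.662%). Dnajb6 and Hsph1 were each counted in overlapping promoters, and Hspe1 and Hspd1 share their block. The motif windows of the 4 genes are shown in the direction of transcription. They include a block of letters shared by a pair of genes, of which 1 was called. Capitals mark the motif, including overlapping copies, and a match is a description of letters, not a bound site.
Hspe1 (chr1:55088053-55088082, + strand): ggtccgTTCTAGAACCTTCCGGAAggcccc
Hspd1 (chr1:55088053-55088082, - strand): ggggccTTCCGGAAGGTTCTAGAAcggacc
Dnajb6 (chr5:29735846-29735870, + strand): ctccgaGAATCTTCCGGAAcgctag
Hsph1 (chr5:149636282-149636306, - strand): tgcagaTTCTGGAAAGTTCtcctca
The Hspe1 and Hspd1 windows are the same bases read on opposite strands, with the first motif base at position -89 from the Hspe1 start and -144 from the Hspd1 start. The motif began at -46 in Dnajb6 and at 16 bases past the start in Hsph1. Both genes have a further annotated start, from which these distances differ. Of the 4 genes, Hspe1 was higher, Dnajb6 and Hsph1 were lower and Hspd1 was not called. Among the 78 tested members with no match or no promoter entry, 25 were lower and 9 higher.

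Hspe1 had 20.4, 32.7, 21.2 and 20.3 FPKM in the Dux KO pools, against 13, 10.5, 9.35 and 9.12 FPKM in the WT pools. Dux KO replicate 2 stood above the other Dux KO pools, and every Dux KO pool was above every WT pool. Hspe1 averaged 23.7 ± 6.07 FPKM in Dux KO and 10.5 ± 1.76 FPKM in WT (SD, n = 4 each), a log2 fold change of 1.08 ± 0.19 (SE; limma adjusted p = 0.00367). The call held without any single pool, Dux KO replicate 2 included (adjusted p = 0.00574 to 0.0129). Hspd1 had 9.57, 13.8, 11.9 and 8.72 FPKM in the Dux KO pools, against 11.6, 10.2, 8.89 and 11.4 FPKM in the WT pools, and the groups overlapped (log2 fold change 0.05, 95% interval -0.33 to 0.43, adjusted p = 0.85). The ratio of Hspe1 to Hspd1 FPKM was 2.13, 2.37, 1.78 and 2.32 in the Dux KO pools and 1.12, 1.04, 1.05 and 0.801 in the WT pools, so the ratio in Dux KO pools was above that in all WT pools. GENCODE M21 names 6 pseudogenes after Hspe1 and 5 after Hspd1, and how the authors' counting treated reads shared with such copies is not given.

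Other genes for folding and proteolysis in the mitochondrion, 14 tested of a list of 15, gave 4 lower (28.6%) and 1 higher (7.14%), against 18.1% and 15.5% of all genes, with a median log2 fold change of -0.50. Most of the 14 averaged 5 FPKM or more, where 26.8% of all genes were lower and 15.0% higher. Timm44, which tethers the mitochondrial HSP70 at the import channel, averaged 9.75 ± 2.55 FPKM in Dux KO and 17.6 ± 5.66 FPKM in WT (log2 fold change -0.78, limma adjusted p = 0.0308). Spg7, a subunit of an inner membrane protease, averaged 5.82 ± 0.903 FPKM in Dux KO and 10.2 ± 2.06 FPKM in WT (log2 fold change -0.70, adjusted p = 0.0149). Htra2, a protease of the intermembrane space, rose (2.61 ± 0.474 FPKM in Dux KO and 1.23 ± 0.502 FPKM in WT, log2 fold change 0.71, adjusted p = 0.015). Hspa9, the mitochondrial HSP70 itself, averaged 27.7 ± 3.41 FPKM in Dux KO and 33.2 ± 8.18 FPKM in WT and was not called (adjusted p = 0.335).

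Of the 10 HSP70 and HSP110 genes, 3 fell (30%), 2 rose (20%) and 5 were not called, with a median log2 fold change of -0.15. Among all genes tested 18.1% were lower and 15.5% higher, and 34.3% were lower at a mean of 20 FPKM or more. The genes that fell were Hspa4 and Hsph1, exchange factors of the HSP110 kind, and Hspa14, which in human cells works at the ribosome. Hspa4 had 20.6, 15.4, 19.2 and 25 FPKM in the Dux KO pools, against 28.4, 33.1, 28.3 and 31.3 FPKM in the WT pools, with no overlap (log2 fold change -0.59 ± 0.16 SE, limma adjusted p = 0.0197). Hsph1 had 8.75, 8.95, 8.61 and 12.3 FPKM in the Dux KO pools, against 14.5, 14.3, 13.3 and 14 FPKM in the WT pools (log2 fold change -0.51, adjusted p = 0.0273). Dux KO replicate 4 was nearest to the WT pools for both genes, yet neither gene overlapped between groups. Hspa14 averaged 36.9 ± 7.03 FPKM in Dux KO and 52.8 ± 7.46 FPKM in WT (log2 fold change -0.52, adjusted p = 0.0386).

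These calls depended on single pools. Hspa4 missed the threshold without WT replicate 4 (limma adjusted p = 0.0524). Hsph1 missed it without Dux KO replicates 1 (0.0763), 2 (0.055) or 3 (0.0616) or without WT replicates 1 (0.0606), 2 (0.0554) or 4 (0.0615), each left out alone. Hspa14 missed it without Dux KO replicates 2 (0.057), 3 (0.0654) or 4 (0.0862) or without WT replicates 1 (0.0556), 3 (0.0941) or 4 (0.0904). Quantile normalization gave 0.0515 for Hsph1 and 0.128 for Hspa14.

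Hspa2, an HSP70 best known from the testis, where sperm development needs it, rose. Its level was 7.82, 10.4, 4.34 and 9.58 FPKM in the Dux KO pools, against 4.06, 4.22, 2.23 and 3.68 FPKM in the WT pools (chr12:76404176-76406938 on the + strand of GRCm38). The lowest Dux KO pool, replicate 3, was just above the highest WT pool. Hspa2 averaged 8.04 ± 2.69 FPKM in Dux KO and 3.55 ± 0.908 FPKM in WT, a log2 fold change of 0.96 ± 0.25 (SE; limma adjusted p = 0.0162). Hspa13, the other gene that rose, had 82 to 122 reads in Dux KO pools and 28 to 68 in WT pools (0.97 ± 0.164 FPKM in Dux KO, 0.54 ± 0.176 FPKM in WT, adjusted p = 0.0486), and it was named after its values were seen.

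The best known HSP70 genes were not called. Hspa5, the HSP70 of the endoplasmic reticulum and the most abundant of the group, had 94.5, 83.6, 90.5 and 140.0 FPKM in the Dux KO pools, against 91.6, 109, 115 and 104 FPKM in the WT pools. Dux KO replicate 4 was the highest and the other Dux KO pools lay near the lowest WT pool (log2 fold change -0.06, 95% interval -0.45 to 0.33, limma adjusted p = 0.801). Hspa8, the constitutive cytosolic HSP70, had 5.27, 4.92, 6.57 and 6.56 FPKM in the Dux KO pools, against 7.26, 5.84, 11.3 and 12.4 FPKM in the WT pools. WT replicates 3 and 4 were high and WT replicate 2 lay among the Dux KO pools (log2 fold change -0.53, adjusted p = 0.0837). Without WT replicate 2 its adjusted p was 0.0315, and the authors' deposited table calls it lower (adjusted p = 0.0436). Hspa1b, a heat-inducible HSP70, had 2.7, 3.49, 1.32 and 2.3 FPKM in the Dux KO pools, against 1.54, 1.95, 0.592 and 2.6 FPKM in the WT pools, and the groups overlapped (log2 fold change 0.39, 95% interval -0.19 to 0.97, adjusted p = 0.257). Its near-identical neighbour Hspa1a was not analysed here, so how reads were split between the copies is uncertain.

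Of the 3 HSP90 genes, the one of the endoplasmic reticulum rose (33.3%) and the others were not called. Among all genes tested 15.5% were higher and 18.1% lower. At a mean of 20 FPKM or more, where the 3 genes lie, 13.6% were higher and 34.3% lower. Hsp90b1, also called GRP94, lies at chr10:86690209-86705509 on the - strand of GRCm38 and had 60.3, 58.9, 54.6 and 78.4 FPKM in the Dux KO pools, against 40.7, 42.1, 44.7 and 42.7 FPKM in the WT pools. WT pools were tight, Dux KO replicate 4 was the highest, and there was no overlap. Hsp90b1 averaged 63 ± 10.5 FPKM in Dux KO and 42.6 ± 1.62 FPKM in WT, a log2 fold change of 0.54 ± 0.15 (SE; limma adjusted p = 0.0179; 0.0199 to 0.0452 with 1 pool left out). A pseudogene on the other strand, 1810014B01Rik, overlaps 10.3% of its exon bases. Hsp90ab1, the constitutive cytosolic form, had 64.1, 55.7, 80.9 and 115 FPKM in the Dux KO pools, against 91.4, 93.8, 128 and 177 FPKM in the WT pools. The groups overlapped through Dux KO replicate 4, and the test was missed with all pools (log2 fold change -0.63, adjusted p = 0.078) and passed without that pool (0.0285). Hsp90aa1, the inducible cytosolic form, averaged 27.2 ± 3.06 FPKM in Dux KO and 30.2 ± 3.06 FPKM in WT (log2 fold change -0.15, adjusted p = 0.434).

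Ratios between transcripts were also compared. Hsp90b1 FPKM was 0.94, 1.06, 0.674 and 0.68 times Hsp90ab1 FPKM in the Dux KO pools and 0.446, 0.449, 0.348 and 0.241 times in the WT pools. Relative to Hspa5, its partner in the same compartment, Hsp90b1 was at 0.638, 0.704, 0.603 and 0.56 times in the Dux KO pools and 0.445, 0.387, 0.389 and 0.412 times in the WT pools. In both ratios every Dux KO pool was above every WT pool.

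**Figure D4:**
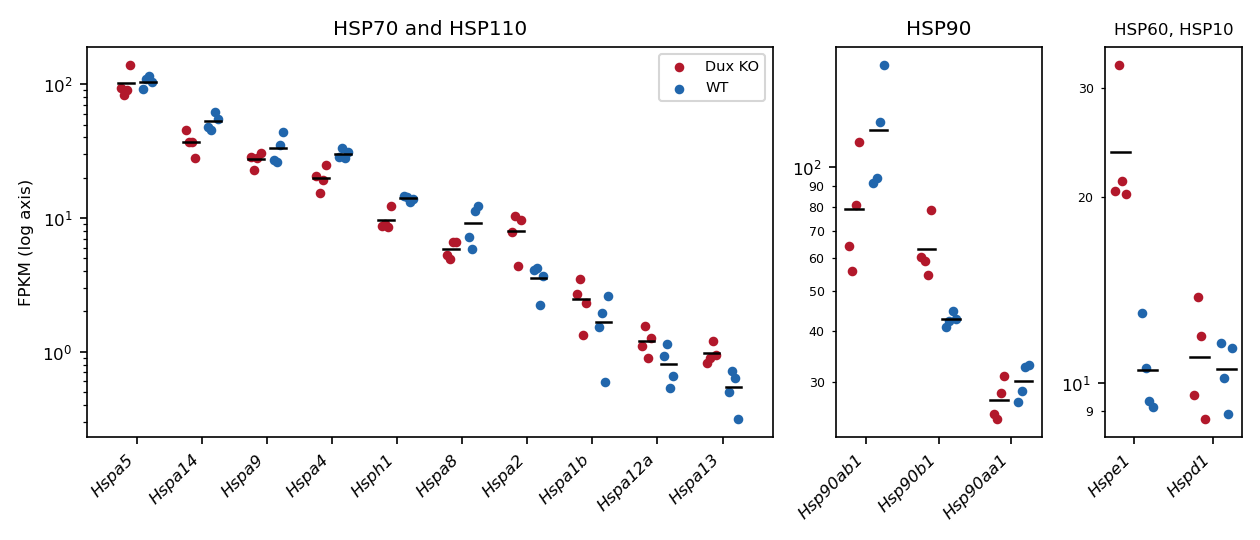
FPKM (log axis) of HSP70 and HSP110, HSP90 and mitochondrial chaperonin genes in each of 4 Dux KO pools (red) and 4 WT pools (blue), with the group mean as a bar. Hsp90b1 (54.6 to 78.4 FPKM in Dux KO, 40.7 to 44.7 FPKM in WT) and Hspe1 (20.3 to 32.7 FPKM in Dux KO, 9.12 to 13 FPKM in WT) are higher in every Dux KO pool, while Hspa5 and Hspd1 overlap.

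The lumen of the endoplasmic reticulum showed few further calls. Of 8 members placed there, a set drawn up after values were seen, 1 was lower (12.5%) and 2 were higher (25%). The shares of all genes were 18.1% and 15.5%. Hsp90b1 and Hspa13 were the genes higher and Dnajb11 the gene lower. Dnajb11, a cofactor of Hspa5, averaged 25.3 ± 1.17 FPKM in Dux KO and 33.7 ± 2.86 FPKM in WT (limma adjusted p = 0.039). In the list of endoplasmic reticulum folding genes, 2 of 22 tested fell (9.09%) and 1 rose (4.55%), shares below the 18.1% and 15.5% of all genes, with a median of 0.11. Pdia3, a disulfide isomerase for glycoproteins, averaged 102 ± 21.1 FPKM in Dux KO and 154 ± 16.9 FPKM in WT (log2 fold change -0.61, adjusted p = 0.0242). Sil1, an exchange factor for Hspa5, averaged 6.46 ± 1.62 FPKM in Dux KO and 10.1 ± 0.543 FPKM in WT (log2 fold change -0.60, adjusted p = 0.0284). Sec61b, a subunit of the translocation channel, rose with 30.6 ± 9.50 FPKM in Dux KO and 15.3 ± 1.69 FPKM in WT (log2 fold change 0.92, adjusted p = 0.00741).

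The DNAJ families supplied 41 of the 82 genes tested, of which 11 fell (26.8%) and 5 rose (12.2%), with a median log2 fold change of -0.20. Among all genes tested 18.1% were lower and 15.5% higher. Most of the 41 averaged 5 FPKM or more, where 26.8% of all genes were lower and 15.0% higher. The DNAJ share of lower calls was therefore no larger than that background. Dnaja had 1 of 4 genes lower and Dnajb had 5 of 11 lower and 1 higher. Dnajc had 5 of 26 lower (19.2%) and 4 higher (15.4%), close to the 18.1% and 15.5% of all genes, and differences between the subfamilies were not tested. Dnajc16 lay below the filter, at 0.244 to 0.529 FPKM in Dux KO and 0.232 to 0.344 FPKM in WT.

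Dnajb7, an intronless gene of the Dnajb subfamily at chr15:81406926-81408299 on the - strand of GRCm38, gave the lowest ratio of all members. It had 0.351, 0.324, 0.442 and 0.627 FPKM in the Dux KO pools, against 1.78, 3.09, 3.44 and 1.82 FPKM in the WT pools. These are 7, 7, 9 and 12 reads in the Dux KO pools and 30, 59, 57 and 33 reads in the WT pools, low counts but far apart. The ratio of means was 0.172, and the log2 fold change of FPKM + 1, which understates changes of low genes, was -1.27 ± 0.18 (SE; limma adjusted p = 0.00207). Dnajc4 (chr19:6987911-6992572 on the - strand of GRCm38) had 35.6, 32.3, 51 and 30.5 FPKM in the Dux KO pools, against 112, 115, 53.6 and 79.9 FPKM in the WT pools. The WT pools were widely spread, and WT replicate 3 was close to Dux KO replicate 3, though the groups did not overlap (log2 fold change -1.22, adjusted p = 0.00624). Dnajc17 had 13.7, 14.9, 14.2 and 15 FPKM in the Dux KO pools, against 21.2, 24.5, 25.8 and 25 FPKM in the WT pools. Both groups were tight and clearly apart (log2 fold change -0.70, adjusted p = 0.00519).

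Dnajb1, the main heat-inducible J-domain partner of cytosolic HSP70, had 29.1, 31, 27.6 and 18.8 FPKM in the Dux KO pools, against 50.5, 52.8, 32.1 and 53.7 FPKM in the WT pools. WT replicate 3 was far below the other WT pools and just above the highest Dux KO pool. Dnajb1 fell by 0.80 on the log2 scale (limma adjusted p = 0.0155), and with single pools left out the adjusted p ran from 0.00839 to 0.0466. Its close relative Dnajb4 went the other way, with 8.41, 17, 9.23 and 6.43 FPKM in the Dux KO pools and 6.51, 6.2, 4.54 and 3.11 FPKM in the WT pools. Dux KO replicate 2 was the highest, and Dux KO replicate 4 lay just under WT replicate 1, so the groups overlapped (log2 fold change 0.85, adjusted p = 0.0364). The Dnajb4 call was lost when any 1 of Dux KO replicates 1 (0.0592), 2 (0.0826) and 3 (0.0602) and WT replicates 3 (0.0718) and 4 (0.102) was left out.

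The genes of the cysteine string proteins, membrane-anchored J-domain proteins known from secretory vesicles, gave 2 genes that rose and 1 that was not called. These genes were grouped after values were seen, the 2 that rose being among the largest DNAJ increases, while 15.5% of all genes were higher. Dnajc5g had 11.7, 12.9, 17 and 11.9 FPKM in the Dux KO pools, against 7.41, 6.21, 4.21 and 3.39 FPKM in the WT pools. Dnajc5b had 18.9, 24.3, 15.4 and 16.6 FPKM in the Dux KO pools, against 12.6, 11.8, 6.13 and 6.27 FPKM in the WT pools. Both were higher in every Dux KO pool than in any WT pool, with log2 fold changes of 1.22 (limma adjusted p = 0.00416) and 1.0 (adjusted p = 0.012). Dnajc5, the widely expressed gene of the family, averaged 12 ± 1.69 FPKM in Dux KO and 11.1 ± 1.64 FPKM in WT and was not called (adjusted p = 0.642). Dnajc14, a J-domain protein of the endoplasmic reticulum membrane, rose with 8.19, 10.5, 7.2 and 6.68 FPKM in the Dux KO pools, against 4.68, 4.64, 4.34 and 4.15 FPKM in the WT pools (log2 fold change 0.73, adjusted p = 0.00925). Ormdl2 overlaps 17% of the Dnajc14 exon bases on the other strand.

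The most abundant J-domain genes were not called. Dnajb9, a cofactor of Hspa5, averaged 222 ± 38.7 FPKM in Dux KO and 293 ± 27.5 FPKM in WT (log2 fold change -0.41, limma adjusted p = 0.0689), and passed without Dux KO replicate 4 (0.0331). Dnaja2, a cytosolic partner of HSP70, averaged 138 ± 4.96 FPKM in Dux KO and 146 ± 8.52 FPKM in WT, with a log2 fold change of -0.07 and a 95% interval of -0.35 to 0.20 (adjusted p = 0.66). The other 7 DNAJ genes that fell had log2 fold changes between -0.69 and -0.40. They were Dnajc15 and Dnajc30 of the mitochondrion, Dnajb6, which holds back protein aggregation, Dnaja1 and Dnajc7 of the cytosol, Dnajb12 of the endoplasmic reticulum membrane and Dnajb11. Dnajb12 and Dnajc30 overlapped between groups.

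**Figure D5:**
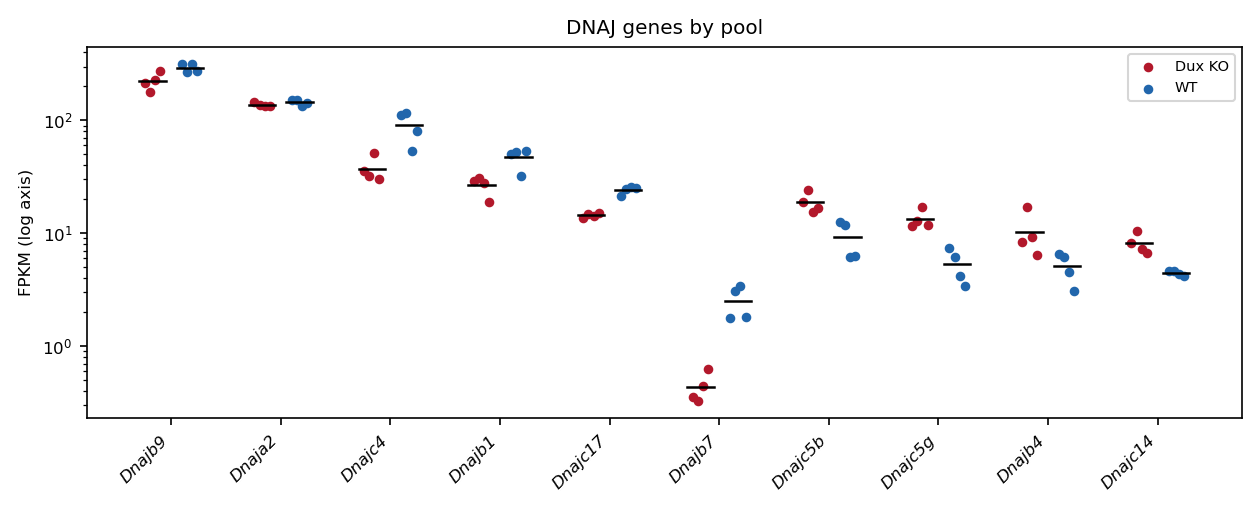
FPKM (log axis) of 10 DNAJ genes in each of 4 Dux KO pools (red) and 4 WT pools (blue), with the group mean as a bar. Dnajb7 and Dnajc17 are lower and Dnajc5g and Dnajc5b higher in every Dux KO pool, while Dnaja2 overlaps near 140 FPKM.

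Of 6 BAG genes, which release clients from HSP70, the 2 most abundant fell and no other was called, at an unadjusted p under 0.05 or in the authors' deposited table either. The 2 are 33.3% of the group, while 18.1% of all genes were lower. Both averaged 20 FPKM or more, where 34.3% of all genes were lower. The other BAG genes averaged under 5 FPKM, where 8.6% were. Bag1 had 152, 115, 144 and 138 FPKM in the Dux KO pools, against 172, 198, 196 and 231 FPKM in the WT pools, with no overlap (log2 fold change -0.53, limma adjusted p = 0.0213). It missed the threshold without WT replicate 4 (0.0688) and under quantile normalization (0.126). Bag5, which carries several BAG domains, had 28.7, 24.3, 28.4 and 24 FPKM in the Dux KO pools, against 37, 42.3, 44.8 and 39.1 FPKM in the WT pools (log2 fold change -0.61, adjusted p = 0.00915). Bag2, Bag3, Bag4 and Bag6 lay between 1.17 and 4.47 FPKM in all pools, with log2 fold changes of -0.15 to 0.18. Hspbp1, a further HSP70 exchange factor, had 29.4, 10.5, 23.1 and 22.8 FPKM in the Dux KO pools, against 25.4, 29.7, 38.4 and 42.6 FPKM in the WT pools. Dux KO replicate 2 was far below the rest, the groups overlapped and the gene was not called (adjusted p = 0.0705; 0.0499 without Dux KO replicate 1). Hspbap1, a binding partner of Hspb1, averaged 4.78 ± 1.56 FPKM in Dux KO and 6.36 ± 1.52 FPKM in WT and was not called (adjusted p = 0.235).

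Of the 3 small HSP genes 1 fell (33.3%), 1 rose (33.3%) and 1 was not called, against 18.1% lower and 15.5% higher among all genes. Hspb1, the HSP27 type that keeps unfolded proteins soluble, had 11.2, 13.1, 14.4 and 13.4 FPKM in the Dux KO pools, against 32.7, 23.5, 25.4 and 13.4 FPKM in the WT pools. WT replicate 1 was the highest and WT replicate 4 lay within the Dux KO range, and the gene fell by 0.76 (limma adjusted p = 0.0273). It missed the threshold without Dux KO replicate 1 (0.0729) or WT replicates 1 (0.0703), 2 (0.0526) or 3 (0.0609). Hspb11, which despite its symbol is the intraflagellar transport protein IFT25, had 4.59, 3.99, 4.66 and 5.44 FPKM in the Dux KO pools, against 2.59, 2.29, 2.28 and 3.08 FPKM in the WT pools. The groups were apart and Hspb11 rose by 0.67 (adjusted p = 0.0101). Hspb6, known from muscle, had 5.42 ± 0.957 FPKM in Dux KO and 3.81 ± 0.736 FPKM in WT without overlap, but was not called (adjusted p = 0.0852).

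Cytosolic co-chaperones outside the symbol rule gave 6 lower (25%) and 1 higher (4.17%) of 24 tested, against 18.1% and 15.5% of all genes, with a median log2 fold change of -0.17. Most of the 24 averaged 5 FPKM or more, where 26.8% of all genes were lower and 15.0% higher. Stip1, which links HSP70 to HSP90, averaged 139 ± 22.7 FPKM in Dux KO and 251 ± 49.8 FPKM in WT (log2 fold change -0.84, limma adjusted p = 0.00836). Ppp5c, a phosphatase bound by HSP90, averaged 1.72 ± 1.29 FPKM in Dux KO and 4.37 ± 1.51 FPKM in WT and overlapped between groups (log2 fold change -1.03, adjusted p = 0.0213). Cdc37l1, a relative of the kinase co-chaperone Cdc37, rose with 9.00 ± 1.11 FPKM in Dux KO and 5.56 ± 0.888 FPKM in WT (log2 fold change 0.61, adjusted p = 0.0177). Among 15 tested regulators of the heat shock and unfolded protein responses, 1 was called (6.67%, against 33.6% of all genes), with a median of 0.18 over the list. It was Ppp1r15a, which restarts translation by having eIF2 alpha dephosphorylated, and it fell, at 27.8 ± 3.23 FPKM in Dux KO and 53.7 ± 8.17 FPKM in WT (log2 fold change -0.92, adjusted p = 0.00369). Hsf1, the heat shock factor, averaged 14.4 ± 0.857 FPKM in Dux KO and 12.6 ± 1.63 FPKM in WT and was not called (adjusted p = 0.351).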

How the data were processed

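The data were RNA-seq libraries from 4 Dux KO and 4 WT pools of 2-cell mouse embryos, grouped by the sample labels. The authors deposited 1 gene table with FPKM values per library, a mean signal per gene (read here as the mean of counts divided by size factors), log2 fold changes and adjusted p-values, per the file headers. Reads went through Trimmomatic 0.32, STAR 2.6.1a and SAMtools 1.7 on build GRCm38 (mm10), in an order that is not stated, per the submitters' processing notes. The sources used here name no counting tool, annotation, strand setting, treatment of multiply mapped reads or test used by the authors. Step sizes between libraries point to scaling of FPKM by size factors, which is an inference, and whole gene reads recovered from them were used for depth only (100% whole within 0.05). All 83 member identifiers matched GENCODE M21, which gave coordinates and exon overlaps; promoter letters came from RefSeq (GRCm38.p6).

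Differences were tested two-sided with limma 3.58.1 in R 4.3.3 (trend and robust moderation, no covariate) on log2(FPKM + 1), leaving out genes that averaged under 0.5 FPKM, with Benjamini-Hochberg adjustment over all 12434 genes tested, and the code was tested on simulated data. Alternatives were a pseudocount of 0.1, no filter, a filter at 5 FPKM, median-of-ratios scaling, quantile normalization, a replicate block, plain moderation, the deposited p-values and leaving out each pool. A fit lacking Dux KO replicates 1 and 2, and another lacking 3 and 4, were chosen after seeing the data.

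The members, lists and rules were chosen with earlier results of these data known. Named genes were a fixed set of well-known chaperones, up to 4 members of each group with the largest change called in each direction (at least 1 FPKM in the higher group), the 2 most abundant members of each group and up to 2 genes per direction in each other list; further genes were named after their values were seen. A deposited table of repeats was not used.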

Additional observations from a re-analysis of the deposited data

Results flagged for a closer look

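In 4 of the 78 groups of 4 pools examined (5.13%), 1 pool lay far from the other 3 by Dixon's test at the 95% level, which sets the gap to the nearest pool against the group's whole range. Chance alone gives about 1 such case in 20 groups. Hspe1 in Dux KO had 32.7 FPKM in replicate 2, against 20.3 to 21.2 FPKM in the other Dux KO pools (gap 0.922 of the range). Cct6a in Dux KO had 31.6 FPKM in the same replicate 2, against 47.9 to 48.7 FPKM in the others (0.958). Hsph1 in Dux KO had 12.3 FPKM in replicate 4, against 8.61 to 8.95 FPKM in the others (0.905). Dnajb1 in WT had 32.1 FPKM in replicate 3, against 50.5 to 53.7 FPKM in the others (0.853).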

How the results depend on the processing

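With each of the 8 pools left out in turn, the limma test called 12 to 26 members lower (27 with all pools) and 7 to 10 higher (10 with all). Lower calls ran from 4 to 10 for DNAJ, 3 to 8 for CCT, 0 to 3 for HSP70 and HSP110, 1 to 2 for BAG, and 0 to 1 for HSP90, small HSP and other symbols, and prefoldin had 3 throughout. Higher calls ran from 3 to 5 for DNAJ and from 1 to 2 for HSP70 and HSP110. Cct4, Pfdn6, Hspe1, Dnajb7, Dnajc17 and Dnajc5g were called in every alternative that tested them. HSP70 and HSP110 had 1 gene higher, in place of 2, with a pseudocount of 0.1, a filter at 5 FPKM, quantile normalization, the replicate block, plain moderation, and Dux KO replicates 3 and 4 left out. The filter at 5 FPKM left 0 small HSP genes higher, and it shifted the median of all genes tested to -0.18. Quantile normalization gave 15 members lower (18.3%, near the 15.3% of all genes there), with 1 HSP70 or HSP110, 3 CCT, 1 prefoldin and 1 BAG gene. The replicate block gave 33 members lower and 9 higher, with 1 HSP90 gene and 1 other symbol lower. The labels do not say that replicate numbers pair the samples. Same-number correlations were -0.115, 0.328, -0.0554 and 0.302, and those between different numbers ran from -0.404 to 0.271. As 0.328 and 0.302 were the highest of all but the others were below 0, the correlations do not settle pairing, and the block is given only here. Without Dux KO replicates 1 and 2, a fit with 2 Dux KO pools, 5 members were lower and 3 higher, with 3 DNAJ, 1 CCT and 1 prefoldin gene lower, 2 DNAJ genes higher, and 0 HSP70 or HSP110, small HSP or BAG genes lower and 0 HSP70 or HSP110, HSP90 or small HSP genes higher. Without Dux KO replicates 3 and 4 there was 1 HSP90 gene lower and 0 small HSP. Among genes not called, Dnaja2 turned to 0.18 and Hspa5 to 0.19 under quantile normalization. With 1 pool left out, Hspa5 ran from -0.22 to 0.0242 (above 0 when Dux KO replicate 2 was missing) and Hspd1 from -0.0622 to 0.14 (below 0 when Dux KO replicate 2 or WT replicate 3 was missing). With Dux KO replicates 1 and 2 both missing, Hspa5 was 0.11 and Hspd1 was -0.0344. The causes of these shifts were not tested. Depth limits Dnajb7, Cct8l1 and Hspa13, which rest on few reads per pool.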
